A study of Mus musculus with 2 samples.

Results

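Binding of the transcription factor Myb was examined at 10 genes of the splicing machinery, namely the SR protein genes Srsf1, Srsf2, Srsf3, Srsf4, Srsf5, Srsf6 and Srsf7, the U2 snRNP gene Sf3b1, and U2af1 and U2af2, which encode the subunits of U2AF. A Myb peak was assigned to a gene when its summit lay in the gene body or within 10 kb of it in the GENCODE vM21 annotation of mm10 (GRCm38). By this rule, 47 of the 25793 Myb peaks, or 0.182%, belonged to the 10 genes, and each gene had at least 1 peak. The genes were grouped by function and by their link to myelodysplastic syndrome, and the rule used no fold enrichment. They were, however, chosen with earlier results of these data known, so the comparisons with other genes below are descriptive.

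ChIP-Seq had been performed on WT Lin- mouse bone marrow cells, a population from which mature blood cells have been depleted and which is enriched for hematopoietic stem and progenitor cells. The stated purity was above 80%, the labels give neither the age nor the sex of the mice nor how many were pooled, and the peak list holds no expression values by which the cell type could be checked. There was 1 precipitate with an antibody against Myb and 1 with normal rabbit IgG, so no value below has a replicate, no test between conditions was possible, and the intervals cover counting error only. Every peak was called against the IgG library. Its fold enrichment is the Myb pileup at the summit, multiplied by 0.769 to match the IgG depth, over the IgG background taken for that peak. A pseudocount of 1 is added to each. This pseudocount lowers the ratio where the background is only a few reads.

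Pre-mRNA splicing removes introns in the spliceosome, a machine of small nuclear RNAs and proteins. U2AF recognizes the 3′ end of the intron, with U2AF1 at the terminal AG and U2AF2 at the polypyrimidine tract, and recruits the U2 snRNP, in which SF3B1 holds the branch point. SR proteins bind exonic enhancers through their RNA recognition motifs and promote exon recognition through their arginine-serine domains, and several keep their own levels in check by splicing in an exon that sends their transcript to nonsense-mediated decay (NMD). Somatic mutations of SF3B1, SRSF2 and U2AF1 are frequent in human myelodysplastic syndrome, and Myb is required for definitive hematopoiesis and for the renewal of progenitors.

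All 10 genes had a peak within 1 kb of an annotated start site of their own, which was the case for 35.8% of the 21938 protein-coding genes. The share of protein-coding genes with any peak in the body or within 10 kb was 52.6%. Peaks were most numerous at Srsf5, with 9, followed by Srsf3 with 7, Srsf2 with 6, Srsf1 and Srsf6 with 5 each, and Srsf7 with 4. Srsf4, U2af1 and U2af2 had 3 each and Sf3b1 had 2. The 7 SR genes thus held 39 of the 47 peaks. At least 3 peaks were found at 9 of the 10 genes, against 20.7% of all protein-coding genes and 48.8% of those with a promoter peak. The median was 4.5 peaks per gene, against 1 over all protein-coding genes and 2 over those with a promoter peak. These are counts of calls, and merging peaks less than 500 bp apart left 30 of the 47. Merged counts over all genes are not given, so the comparison holds for separate calls only.

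**Figure D1:**
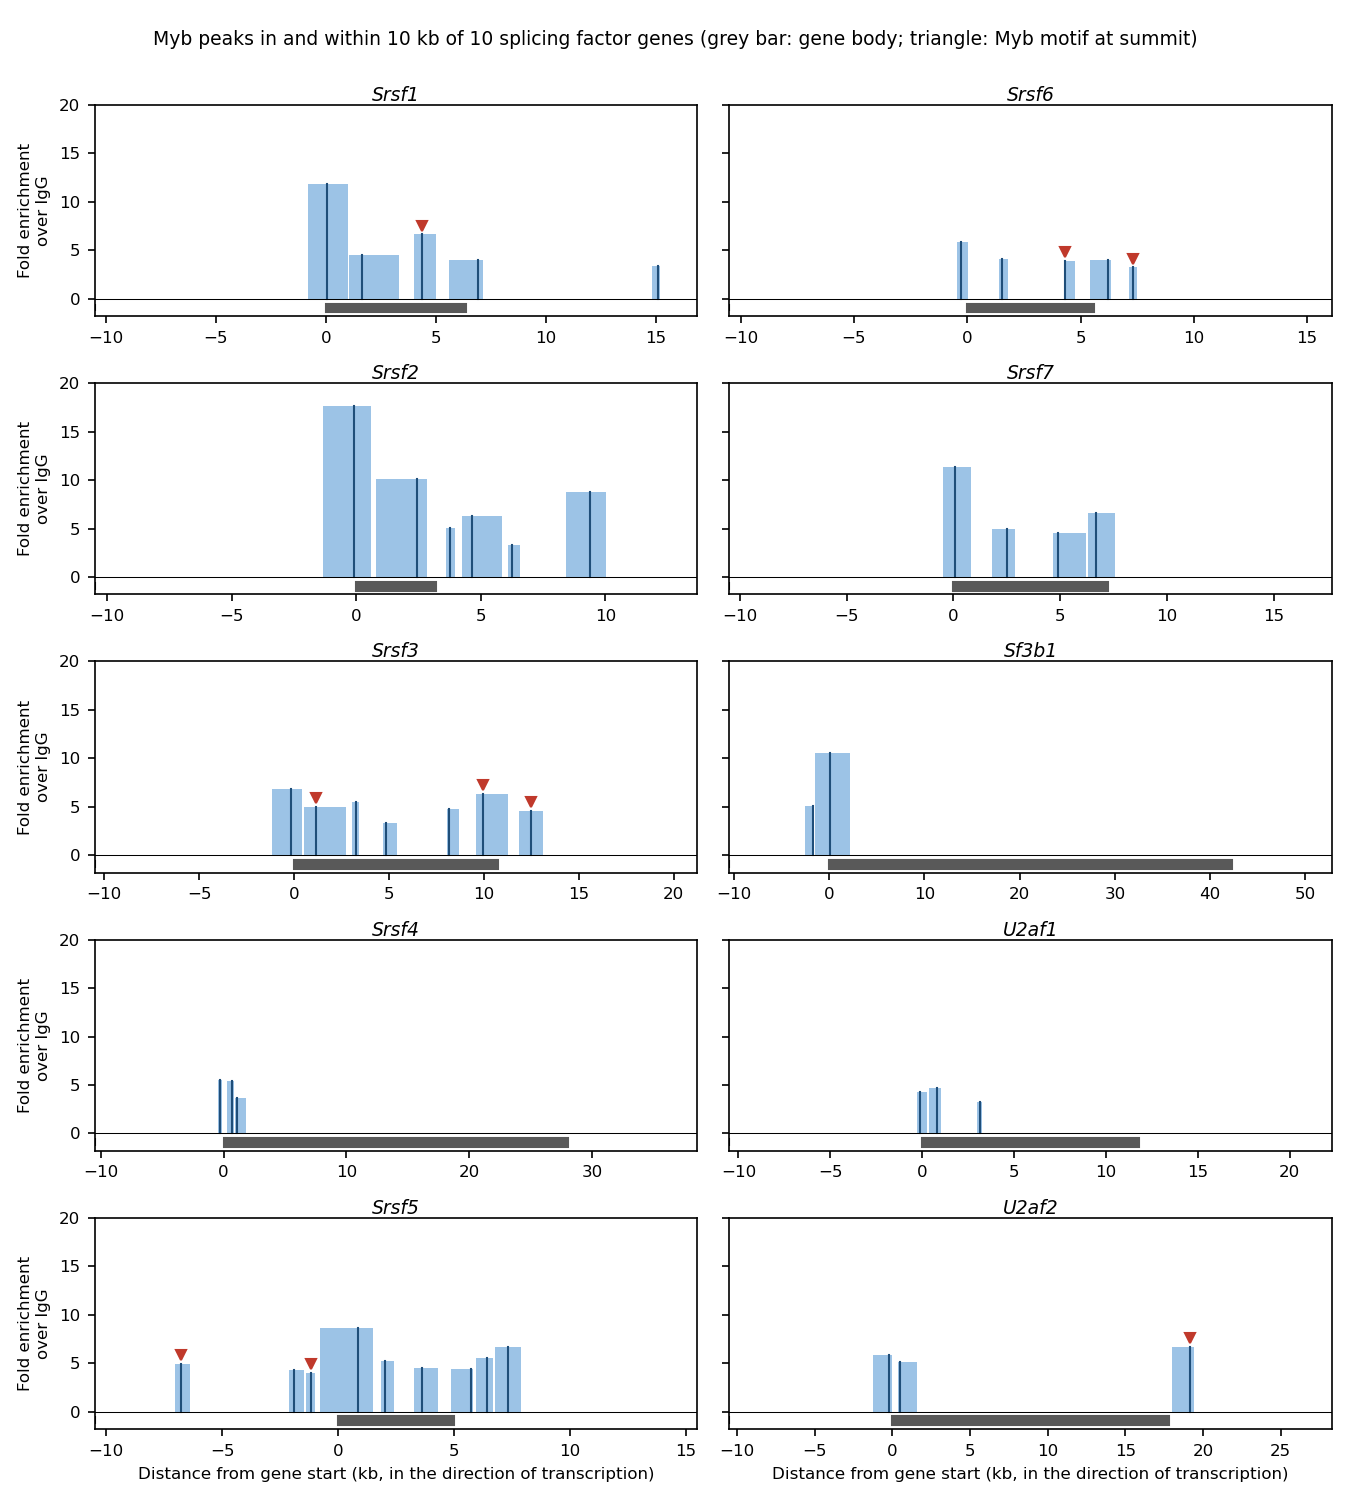
Myb peaks at the 10 genes, with the distance from the gene start in kb along the direction of transcription on the x axis and the fold enrichment over IgG on the y axis. Light bars span each peak, dark lines mark summits, the grey bar is the gene body, and red triangles mark the 9 summits with the Myb motif; the tallest bar is the Srsf2 peak at 17.7-fold, and none of the tallest start-site bars carries a triangle.

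The peaks had a median fold enrichment of 5.04, against 4.51 over all 25793 peaks, and ranged from 3.22 to 17.7. The number of reads at a summit, recovered from the deposited values, ranged from 10 to 80 with a median of 20, against a median of 18 over all peaks. Fewer than 20 reads covered 21 of the 47 summits, so the fold enrichments of the weaker peaks were not ranked against each other. The IgG background set against the summits ranged from 1.46 to 4 reads, with a median of 2.09 against 2 over all peaks. At Srsf1 peak 3 and Srsf7 peak 4 it was 1.46. This was the lowest common value of the whole list, taken as the genome-wide level and not as a local signal. The q-value of 1 peak, the most distal one at Srsf6, was above 0.05, as it was in 7.24% of the whole list. The paper's methods give q below 0.05 as the limit for Myb peak calls, which these rows do not meet.

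The peaks of the splicing factors were wide. Their median width was 953 bp against 577 bp over all peaks, and 22 of them, or 46.8%, were wider than 1 kb, against 19.6% of all peaks. Of the 47 summits, 24 lay inside the gene body, 10 upstream and 13 downstream. Within the body, 13 summits were in introns of the principal transcript, 4 in coding exons, 2 in 5′ UTRs and 5 in 3′ UTRs. The same split over the peaks of all genes is not given, so these positions are not read as a trait of the 10 genes.

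At the upper end of the range, 4 of the 10 genes had a peak of at least 10-fold, against 5.61% of all protein-coding genes and 12.5% of those with a promoter peak. These genes were Srsf2, Srsf1, Srsf7 and Sf3b1. In each of them the strongest peak was at the gene start. The peaks are described below by the role of the gene, beginning with the SR proteins.

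Srsf2, which encodes an SR protein mutated in myelodysplastic syndrome, lies on chromosome 11 from 116849901 to 116853094 on the minus strand and is the shortest of the 10 genes, at 3194 bp. Its strongest peak, chr11:116852498-116854436, had a fold enrichment of 17.7 with an interval from 14.1 to 22. This was the highest value of all 47 peaks and ranked 92 in the whole list. It rested on 80 reads (exact Poisson 95% interval, 63.4 to 99.6) over an IgG background of 2.54. The summit lay 107 bp upstream of the outermost start of Srsf2 and 94 bp from the start of Mfsd11, a neighbor transcribed in the other direction, and the outermost starts of the divergent pair are 201 bp apart. The nearest start site was therefore that of Mfsd11, and the peak cannot be assigned to either gene alone. The sequence within 50 bp of the summit is shown because it is the strongest site of the set and is shared by both promoters. It holds no Myb motif. Of the other words searched, TTGCNNAA of CEBP factors and an E-box (CANNTG) are present but not marked. The capitals mark a GGGCGG word, the core of SP and KLF factor sites, and a CCAAT word, the core of the NF-Y site (GRCm38.p6, chr11:116853151-116853251, minus strand):
Srsf2 peak 1: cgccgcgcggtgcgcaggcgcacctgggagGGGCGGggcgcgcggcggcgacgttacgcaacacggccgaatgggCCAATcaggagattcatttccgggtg

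The remaining peaks of Srsf2 ran through the gene and past its end. Peak 2 had its summit in the 3′ UTR, 750 bp before the gene end, with a fold enrichment of 10.1 (7.14 to 14) and 34 reads, and Srsf2 itself held the nearest start site, 920 bp away. Peak 3 lay 589 bp past the gene end with a fold enrichment of 5.04, and peak 4 lay 1437 bp past it with 6.34. Peaks 5 and 6 were farther downstream, at 3.33-fold and 8.82-fold. For peaks 3 to 6 the nearest start site was that of Mettl23, a methyltransferase-like gene, at distances of 411, 437, 2070 and 27 bp. Srsf2 was thus the gene with the most peaks nearest to a neighbor, 5 of 6.

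Srsf1 encodes the prototype SR protein, known also as ASF/SF2, and lies on chromosome 11 from 88047373 to 88053755 on the plus strand. Its strongest peak, chr11:88046544-88048369, had a fold enrichment of 11.8 (9.06 to 15.1) with 60 reads, and its summit lay 33 bp inside the first exon. Srsf1 held the nearest protein-coding start, and the lincRNA 2010015M23Rik starts 13 bp away in the divergent direction. Peak 2, in intron 2, was 2246 bp wide with a fold enrichment of 4.48. Peak 3, in the 3′ UTR, reached 6.65-fold (4.22 to 10.1) and held a Myb motif. Peaks 4 and 5 were downstream by 548 and 8696 bp, with fold enrichments of 3.99 and 3.41, and the lincRNA Gm15892 held the nearest start site of both. Among protein-coding starts, that of Vezf1, 5828 bp away, was the nearest to peak 5.

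Srsf7, an SR protein gene with a zinc knuckle, lies on chromosome 17 from 80200080 to 80207307 on the minus strand. Its strongest peak, chr17:80206480-80207800, had a fold enrichment of 11.3 (8.87 to 14.2). With 72 reads it had the second deepest summit of the set, over an IgG background of 4, the highest value found among the 47 peaks. The summit lay 63 bp inside the gene in the 5′ UTR, and Ttc39d starts 153 bp away in the divergent direction. All 4 peaks of Srsf7 had their summits inside the gene, with fold enrichments of 4.95, 4.56 and 6.65 for peaks 2 to 4. Peak 4 was in the 3′ UTR, and the misc_RNA Gm25706 held its nearest start, 4224 bp away against 4317 bp for Srsf7.

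Srsf5, an SR protein gene, lies on chromosome 12 from 80945504 to 80950507 on the plus strand. The 9 peaks of Srsf5 were the most at any of the 10 genes, and 1.57% of protein-coding genes had as many or more. Several of the 9 lay less than 500 bp apart and were counted as separate calls. The strongest, chr12:80944720-80947028, had a fold enrichment of 8.59 (6.11 to 11.8) with 36 reads, and its summit lay 850 bp from the outermost start and 22 bp from another annotated start of Srsf5. Peaks 1 to 3 were 6793, 1902 and 1167 bp upstream, at 4.97-, 4.31- and 3.99-fold, and the lncRNA Gm20337, which starts 108 bp from Srsf5 in the divergent direction, held their nearest start site. Srsf5 was the nearest protein-coding gene to all 9. Peaks 5 and 6 were in coding exons, at 5.21-fold and 4.46-fold. Peaks 7 to 9 followed each other past the gene end, 745, 1421 and 2327 bp from it, with fold enrichments of 4.44, 5.55 and 6.70.

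Srsf3, which encodes the smallest SR protein, lies on chromosome 17 from 29032628 to 29043373 on the plus strand. Its strongest peak, chr17:29031478-29033022, had a fold enrichment of 6.82 (4.99 to 9.11) with 43 reads over an IgG background of 4. The summit was 171 bp upstream of Srsf3, and the divergent lncRNA Gm16196 held the nearest start site, 111 bp away. Peaks 2 to 6 had their summits inside the gene, from 3.28-fold to 6.31-fold. The highest of these was peak 6, in the 3′ UTR, with 24 reads. Peak 7, 1753 bp past the gene end, had a fold enrichment of 4.57.

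Srsf6 and Srsf4 had lower enrichments. Srsf6, on chromosome 2 from 162931528 to 162937121 on the plus strand, had its strongest peak, chr2:162931061-162931565, 285 bp upstream of the start, with a fold enrichment of 5.84 (3.94 to 8.37) and 27 reads. Peaks 2 and 3 of Srsf6 lay in intron 2 and in the 3′ UTR at 4.14-fold and 3.88-fold. Peaks 4 and 5 lay 601 and 1724 bp past the gene end at 3.97-fold and 3.25-fold, and L3mbtl1, a gene of a polycomb-like chromatin reader, held their nearest start, 5750 and 4627 bp away. Srsf4, on chromosome 4 from 131873617 to 131901706 on the plus strand, had all 3 peaks within 1 kb of an own start, at 5.51-fold (3.63 to 8.06), 5.37-fold and 3.62-fold, and none farther into the gene. The peak of Srsf6 is shown because its summit window holds 2 CCAAT words and the word AAGATGGC, the core of the YY1 site, all in capitals (GRCm38.p6, chr2:162931193-162931293, plus strand):
Srsf6 peak 1: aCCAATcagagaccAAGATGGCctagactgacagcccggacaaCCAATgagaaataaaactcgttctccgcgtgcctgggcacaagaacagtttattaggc

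Sf3b1, which encodes the largest subunit of the SF3b complex and is the splicing gene most often mutated in myelodysplastic syndrome, lies on chromosome 1 from 54985169 to 55027481 on the minus strand. It is the longest of the 10 genes, at 42313 bp, and had the fewest peaks. Its strongest peak, chr1:55025269-55029003, had a fold enrichment of 10.6 (7.92 to 13.9) with 50 reads. At 3735 bp it was the widest of the 47 peaks. The summit lay in the first coding exon, 127 bp from the outermost start and 19 bp from the nearest annotated start of Sf3b1. Peak 1, 1736 bp upstream, had a fold enrichment of 5.07. No summit was found in the gene beyond the first exon, and Sf3b1 held the nearest start site of both peaks.

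U2af1, on chromosome 17 from 31647081 to 31658892 on the minus strand, had peaks of low enrichment, and the interval of its highest overlapped those of Srsf3, Srsf4, Srsf5, Srsf6 and U2af2. Its peaks reached 4.64-fold (2.94 to 7.01) with 20 reads in intron 1, 4.29-fold with 21 reads 100 bp upstream of the start, and 3.22-fold with 13 reads, also in intron 1. U2af1 held the nearest start site of all 3. U2af2, on chromosome 7 from 5062143 to 5079938 on the plus strand, had a peak of 5.89-fold (4.21 to 8.05) with 37 reads 234 bp upstream of its start, and Gm45133, which the annotation marks as to be experimentally tested, held the nearest start, 140 bp away. Peak 2 of U2af2, in intron 1, had a fold enrichment of 5.09. Peak 3 was the strongest by value, at 6.70-fold (4.34 to 9.95) with 22 reads, but it lay 1345 bp past the gene end and 990 bp from the start of Epn1, an endocytic adaptor gene, which was nearer than any start of U2af2.

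The strongest peak within 1 kb of the gene start was compared between the 10 genes. Its median fold enrichment was 7.71, against 5.01 over the 6965 protein-coding genes with such a peak. The median width was 1433 bp against 754 bp, the median number of reads 40 against 21, and the median IgG background 2.73 against 2.26. Of the 45 pairs among the 10 genes, 29 had overlapping intervals and 16 did not, with the IgG background held fixed. The same share over pairs of the 6965 genes is not given, so these counts are not read as a trait of the 10 genes. The intervals of Srsf2, Srsf1, Srsf7, Sf3b1 and Srsf5 lay wholly above the median of 5.01, while that of Srsf3, from 4.99, included it by a small margin, as did those of U2af2, Srsf6, Srsf4 and U2af1. Among the genes mutated in myelodysplastic syndrome, the interval of U2af1 lay below those of Srsf2 and Sf3b1. The intervals of Srsf2 and Sf3b1 all but met, at 14.1 and 13.9, and since they hold the IgG background fixed, and the Srsf2 peak is shared with Mfsd11, those peaks were not ranked.

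**Figure D2:**
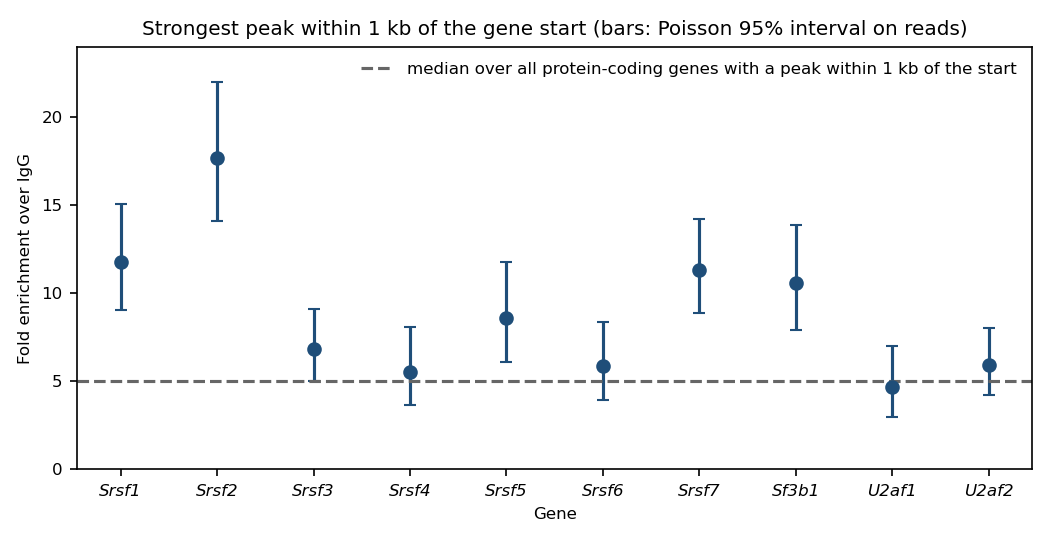
Fold enrichment over IgG (y axis) of the strongest Myb peak within 1 kb of the start of each gene (x axis), with bars for the exact Poisson 95% interval of its reads and a dashed line at the median of all protein-coding genes with such a peak, 5.01. The points run from 4.64 at U2af1 to 17.7 at Srsf2, and the bars of Srsf3, Srsf4, Srsf6, U2af1 and U2af2 reach the dashed line.

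Neighboring genes held the nearest annotated start site of 16 of the 47 peaks, and of 9 when only protein-coding genes were considered. The same share over the peaks of all protein-coding genes is not given, so these counts only describe the 10 genes. The 16 peaks were 5 at Srsf2, 3 at Srsf5, 2 each at Srsf1, Srsf6 and U2af2, and 1 each at Srsf3 and Srsf7. Every peak of Srsf4, Sf3b1 and U2af1 was nearest to a start of its own gene. A divergent start of another gene of any type, noncoding genes included, was annotated within 1 kb at Srsf1, Srsf2, Srsf3, Srsf5, Srsf7 and U2af2. How often this holds for all protein-coding genes is not given. At the 10 kb limit, the farthest peak inside was peak 5 of Srsf1, at 8696 bp and 3.41-fold. The first peak outside was 12218 bp from Srsf4 with a fold enrichment of 4.18, and it lay 311 bp from a start of Mecr.

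The wide peaks of the SR genes covered much of the gene itself. Peaks overlapped 82.8% of the body of Srsf2, 78.4% of Srsf1, 65% of Srsf5, 60.7% of Srsf7 and 51.2% of Srsf3. The share was 19.8% in Srsf6, 10% in U2af1, 6.96% in U2af2, and 5.23% in both Srsf4 and Sf3b1. More than 50% of the body was thus covered in 5 of the 10 genes, all of them SR genes, against 1.12% of all protein-coding genes. For genes of like length, the comparison was repeated with the 4944 genes that had a promoter peak and a length between 3194 and 42313 bp, the range of the 10 genes, and 1.56% of them were covered by more than 50%. The median was 35.5% over the 10 genes and 4.38% over those 4944 genes. The 5 covered genes were between 3194 and 10746 bp long, and the part of this narrower range in the difference was not tested.

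**Figure D3:**
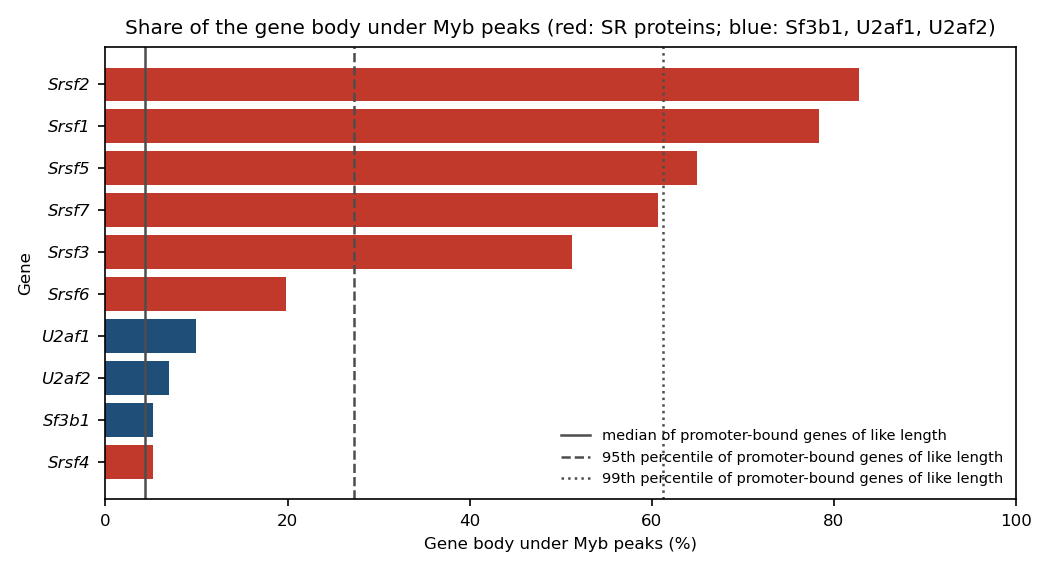
Percentage of each gene body that lay under Myb peaks (x axis), with SR genes in red and Sf3b1, U2af1 and U2af2 in blue. Vertical lines mark the median (4.38%), the 95th percentile (27.3%) and the 99th percentile (61.2%) of genes with a promoter peak and a length in the range of the 10 genes; 5 SR genes lie beyond the 95th percentile.

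Peaks were also found at the 3′ ends of the SR genes. A summit within 1 kb of the annotated gene end, and not within 1 kb of the gene start, was present at 6 of the 10 genes, against 3.87% of all protein-coding genes, 6.93% of those with a promoter peak, and 8.69% of those with a promoter peak that were no longer than Sf3b1. The 6 genes were Srsf1, Srsf2, Srsf3, Srsf5, Srsf6 and Srsf7. The summits lay inside the gene at Srsf2, Srsf3 and Srsf7, 750, 766 and 548 bp before the end, and 548, 589, 745 and 601 bp past it at Srsf1, Srsf2, Srsf5 and Srsf6. None was within 500 bp of the end, where 2.32% of all protein-coding genes and 4.43% of those with a promoter peak and a length in the range of the 10 genes had a peak. Srsf4, Sf3b1, U2af1 and U2af2 had no such peak. When peaks with a −log10 q-value below 5 were left out, 3 of the 10 genes had a 3′ peak, against 1.83% of all protein-coding genes. A promoter peak was kept by 2891 genes of like length, among them 9 of the 10 genes, all but U2af1. Of these 9, 3 had a 3′ peak, against 4.7% of the 2891. Under the same limit the median cover of the gene body was 15.6% over the 10 genes. It was 24.3% over the 9 genes and 4.26% over the 2891. Only Srsf2 was then covered over more than 50%, 1 of the 10 genes against 0.798% of all protein-coding genes. Among the 9 this was 1, against 1.35% of the 2891. The cover of the other 4 genes thus rested in part on weaker peaks.

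Exons of annotated NMD transcripts were examined next, where they overlapped no exon of the gene's principal transcript. Other transcripts were not checked, so these exons are not shown to be specific to decay. Overlapping variants of an exon were counted separately. Such exons numbered 14 in 8 of the 10 genes, and 4 of them, or 28.6%, lay under a Myb peak. Over all protein-coding genes, 235 of 3804 such exons, or 6.18%, lay under a peak, and 11% did so in genes with a promoter peak. The 4 exons belonged to Srsf2, Srsf3, Srsf6 and Srsf7. At Srsf6 (chr2:162932815-162933082) and at Srsf7 (chr17:80204622-80205081) the summit of peak 2 was inside the exon, at 4.14-fold with 13 reads and at 4.95-fold with 18 reads. At Srsf3 the summit of peak 5 lay 52 bp from the exon chr17:29040666-29040735, while a second exon, chr17:29039454-29039909, was not under a peak. At Srsf2 the exon lay under peak 2, but its summit was 997 bp away. The 5 exons of Srsf4, 1 of Sf3b1, 2 of U2af1 and 1 of U2af2 were not under a peak. Because Srsf2, Srsf3 and Srsf7 were covered over more than 50% of their length, an overlap there was not particular to the exon. The sequences at the summits inside the exons of Srsf6 (chr2:162933064-162933092, plus strand) and Srsf7 (chr17:80204791-80204819, minus strand) are given for these 2 sites, and neither holds a Myb motif:
Srsf6 peak 2: aaaaacctcacactgtgatgtaagtactt
Srsf7 peak 2: gaccacattcccaactagaaaaatcttct

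The recognition sequence of Myb was searched within 50 bp of each summit, on both strands, as NAACNG with C or T at the first place and G or T at the fifth. It was present at 9 of the 47 summits, or 19.1% (exact binomial 95% interval, 9.15% to 33.3%), against 16.7% (16.2% to 17.1%) of all 25793 summits. The interval included the share over all peaks, so a difference was not detectable with 47 peaks. This interval, like those of the other motifs below, treats the peaks as independent. Because many of the 47 lie close together at the same genes, the intervals may be too narrow. The 9 summits were 3 at Srsf3, 2 each at Srsf5 and Srsf6, and 1 each at Srsf1 and U2af2. No summit window of Srsf2, Srsf4, Srsf7, Sf3b1 and U2af1 held the motif, which does not cover the rest of their peaks. All 9 matches had T at the fifth place, and those that begin with C are also E-boxes (CANNTG).

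The matches are shown because they are the sites at which the factor's own sequence lies under a summit, in the orientation of the gene, with the Myb word or its reverse complement in capitals (GRCm38.p6):
Srsf1 peak 3, chr11:88051728-88051757: ctaaagaacttaCAGTTGctgtttattttg
Srsf3 peak 2, chr17:29033752-29033781: tagcaaacttcaTAACTGtcattcctctag
Srsf3 peak 6, chr17:29042633-29042662: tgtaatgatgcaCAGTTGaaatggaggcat
Srsf3 peak 7, chr17:29045149-29045178: gtctctggagcaCAGTTGagttagtacagt
Srsf5 peak 1, chr12:80938743-80938772: tactgtttaaggCAGTTGagcagcagcaag
Srsf5 peak 3, chr12:80944318-80944347: tctatttctcaaTAACTGttgatttcgact
Srsf6 peak 3, chr2:162935873-162935902: catccgcaagccCAGTTAgttgaaactgca
Srsf6 peak 5, chr2:162938799-162938828: cctactttgaggCAGTTGctctgacctagg
U2af2 peak 3, chr7:5081245-5081274: gaaattctaaatTAACTGtggaaaatggcc

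The word closest to its summit was that of Srsf5 peak 3, 4 bp away, followed by that of Srsf1 peak 3 at 10 bp. The other words were 24 to 46 bp from the summit. The peaks with the motif had fold enrichments from 3.25 to 6.70. None of the strongest start-site peaks of the 10 genes held the motif within 50 bp of the summit. The rest of each peak was not searched. Among the 23 peaks within 1 kb of a protein-coding start, 1 held the motif at its summit (4.35%, 0.11% to 21.9%), against 13.4% of all peaks so placed. This was U2af2 peak 3, near Epn1. Among the other 24 peaks, 8 held the motif at the summit (33.3%, 15.6% to 55.3%), against 18.7%. Both intervals included the value over all peaks.

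The summits at the starts of Srsf1, Srsf7 and Sf3b1 are shown with the central 29 bases, as the strongest start-site peaks besides that of Srsf2, and none has a Myb word (GRCm38.p6):
Srsf1 peak 1, chr11:88047392-88047420, plus strand: ctgctttcagagagggtctacccccgagg
Srsf7 peak 1, chr17:80207230-80207258, minus strand: gtgctactcgcgctgtgagcattccaagc
Sf3b1 peak 2, chr1:55027340-55027368, minus strand: aaatggcgaagatcgccaagactcacgaa

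Words of other factor families were counted in the same windows. CCAAT was present at 7 summits (14.9%, 6.2% to 28.3%) against 11.1% of all peaks, GGGCGG at 3 (6.38%) against 7.15%, and E-boxes at 15 (31.9%) against 41.1%. AGATAA, the GATA word, was found at 2 summits against 8.67% of all, and TGTGGT, the RUNX word, at 4 against 9.79%. TTGCNNAA, a CEBP word, was found at 3 against 6.16%. The ETS word CCGGAAG was at 0 of 47 summits, which allows a share of up to 7.55%, against 1.85% of all peaks. AAGATGGC was at 2 summits, Srsf5 peak 8 and Srsf6 peak 1 (4.26%, 0.52% to 14.5%), against 0.694% of all peaks. Every interval of these families included the share over all peaks.

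**Figure D4:**
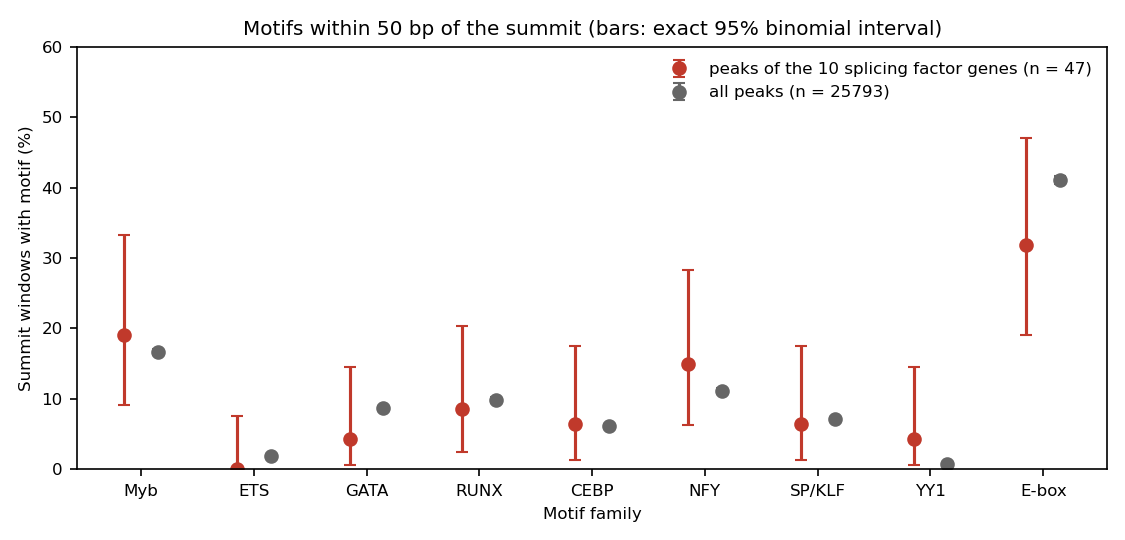
Percentage of summit windows (50 bp on either side) that held a motif of each family (x axis), for the 47 peaks of the splicing factor genes in red and all 25793 peaks in grey, with exact binomial 95% intervals. The Myb motif was present at 19.1% and 16.7% of the windows, and the red intervals are wide because of the small number of peaks.

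The start regions of the 10 genes were rich in CpG. Within 500 bp of the start, the median GC content was 63.6%, against 54.7% over all protein-coding genes and 58.7% over those with a promoter peak. The ratio of observed to expected CpG was at least 0.6 in all 10 genes, against 46% of protein-coding genes, with a median of 0.972 against 0.757 for genes with a promoter peak. At the summits the median GC content was 43.6%, against 48.5% over all peaks. In the RefSeq promoters of GRCm38, from 250 bases before to 50 after the start, 9 of the 10 genes had an entry, all but U2af2. The Myb words were present in the promoters of Sf3b1, Srsf1, Srsf2 and Srsf5, 4 of 9, against 28.2% of 27025 promoters. GGGCGG was in 8 of 9 against 35.9%, and CCAAT in 4 against 37.9%. The ETS word was in 3 against 9.12%, the CEBP word in 2 against 10.8%, and E-boxes in 7 against 72.1%. The GATA, RUNX and YY1 words were in 0 of 9, against 11.4%, 16.9% and 2.88%. These shares of 9 promoters were not tested. Where the promoter Myb words lie in the start-site peaks, whose summit windows held none, was not examined.

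Other genes of the splicing machinery were described in the same way. Of 51 such genes in 7 lists, 49 had a peak and 45 a promoter peak, with a median of 3 peaks per gene and a median highest fold enrichment of 6.43. The corresponding median over the 10 genes was 7.71, and over all protein-coding genes with a peak 5.72. The genes without a peak were Srsf12, an SR-related gene, and Zrsr2, a U2AF1-like gene on the X chromosome that is mutated in myelodysplastic syndrome. Among the other SR proteins, 5 of 6 had a peak and none reached 10-fold, with Tra2b highest at 8.43. The other SF3a and SF3b subunits had a median highest value of 5.64, and Sf3a2 reached 12.9-fold. The other 3′ splice site and U2AF-related proteins, 5 of 6 with a peak, had the highest median of the 7 lists, 9.05, led by Rbm39 at 11.6-fold. Of 3 other splicing-linked genes mutated in myeloid disease, with a median of 6.17, Ddx41, an RNA helicase gene, had a peak of 10.1-fold but none within 1 kb of its own start. The SR protein kinases and the Sm and U1 proteins had medians of 5.88 and 6.43, led by Srpk2 at 8.40 and Snrpe at 8.07.

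The hnRNP genes, whose proteins often oppose SR proteins at exons, had the highest median number of peaks among the 7 lists. All 12 had a promoter peak, that median was 7 peaks per gene, and the median highest fold enrichment was 7.82, led by Hnrnph1 at 19.2. More than 50% of the gene body lay under peaks in 5 of 12, with 98% in Hnrnpa2b1 and 85.9% in Hnrnph1, and 5 of 12 had a peak within 1 kb of the 3′ end. Among all 51 genes, 6 were covered over more than 50%, the other being Tra2b at 66.3%. In contrast, the highest cover among the 9 Sm and U1 genes was 10%. Cover above 50% was thus found among hnRNP genes as well as among SR genes.

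**Figure D5:**
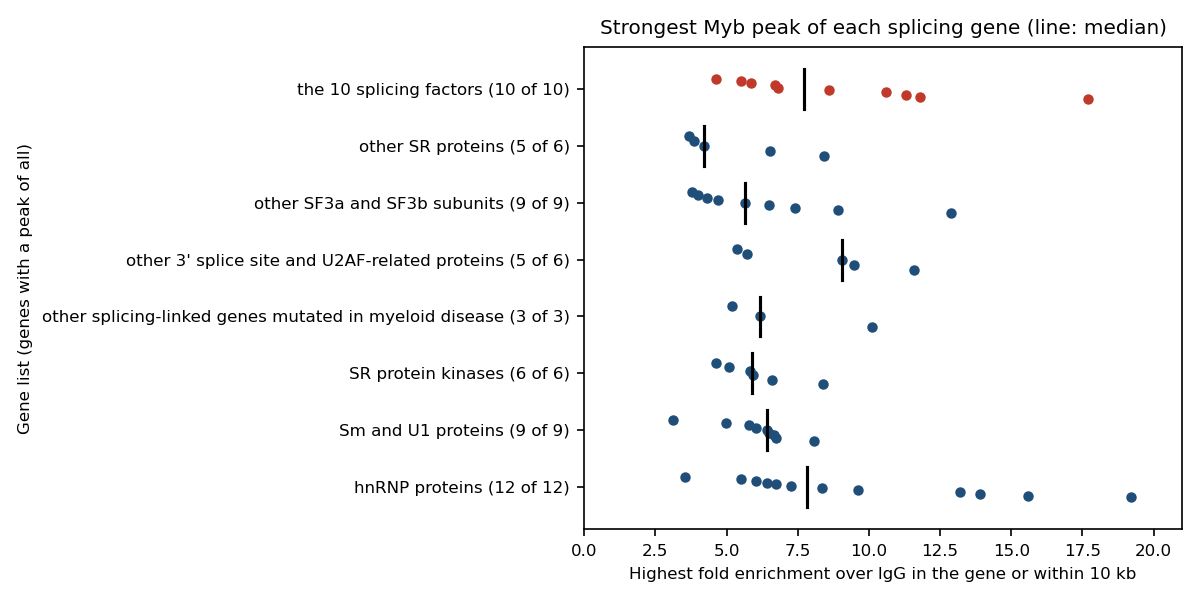
Highest fold enrichment over IgG of any Myb peak in the gene or within 10 kb of it (x axis) for each gene of 8 lists (y axis, with the number of genes with a peak of all genes in the list), with a vertical line at the median. The 10 splicing factors have a median of 7.71 and the hnRNP genes of 7.82, while the other SR proteins have the lowest median, 4.2.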

How the data were processed

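The study precipitated Myb or IgG chromatin of Lin- cells, inserted adapters with Tn5 transposase on the beads and sequenced single-end reads. Groups were taken from the sample titles, and the IgG library entered only as background. Per the submitters' processing notes and the study's methods, reads were trimmed with cutadapt 1.15, aligned to mm10 with BWA 0.7.13 and deduplicated with Picard, and narrow peaks were called with MACS2 2.1.1.20160309 and kept where calls from pseudo-replicates, which are subsets of 1 library, overlapped.

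The analysis used the 1 deposited peak list. Its fold enrichment is a ratio computed by the authors with MACS2, its p-value and q-value were deposited as −log10 values, and the deposited score was not used. Read numbers were worked out row by row, from the p-value together with the fold enrichment, by a single scale of 0.769, which gave whole reads in 100% of the rows within a tolerance of 0.002 on the −log10 p-value. Depth in total reads is not given in the sources used here. Intervals are exact 95% Poisson (reads, and fold enrichment derived from them with the IgG background held fixed) or binomial (shares).

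Summits were assigned to GENCODE vM21 genes, and exons, introns and UTRs follow the principal transcript. Coordinates are 1-based mm10, and sequences were read from GRCm38.p6, within whose chromosomes all 25793 peaks lay. Python 3.11.15, pandas 2.3.3, numpy 2.4.6, scipy 1.17.1, pysam 0.24.0 and matplotlib 3.10.9 were used, and the scripts were tested on simulated data. The genes named were the 10 genes, for each peak the gene with the nearest start site, and of each comparison list the gene with the highest value and those without a peak; further hnRNP genes, Tra2b in the account of cover, divergent neighbors and the peak near Mecr were named after their values were seen. The 10 genes and the lists were chosen with earlier results of these data known. Cover of the gene body, peaks at 3′ ends and NMD exons were added after seeing the data.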

Additional observations from a re-analysis of the deposited data

How the results depend on the processing

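With 1 library, all values describe that library, and 21 of 47 summits had fewer than 20 reads. Of 55 values recomputed under the alternatives, 36 stayed within their limits and 19 moved. All 10 genes kept a peak and a promoter peak except at a −log10 q-value of at least 5, where U2af1 had none, and the median highest fold enrichment stayed between 7.45 and 8.59. At that threshold 25 peaks were left, 8 of them nearest to a neighbor's start and 4 with the Myb motif, and 35.9% of protein-coding genes had a peak. With summits in the gene body only, these values were 24, 1, 4 and 35.4%. The share of genes with a peak was 49.8% at a −log10 q-value of at least 2, 46.4% and 58.6% with windows of 3 and 20 kb, and 45.6% by the nearest protein-coding start. With protein-coding starts only, 9 peaks were nearest to a neighbor. The looser motif AACNG was at 28 summits (54.3% of all peaks), and a window of 25 bp left 2 with the Myb motif (8.68% of all peaks). These counts follow from fewer or more peaks, starts or words being admitted. Merging peaks less than 500 bp apart, an alternative chosen after seeing the data, gave 30 peaks. Also after seeing the data, 3′ peaks were found at 3 genes under the same q-value limit (1.83% of all protein-coding genes) and at 0 genes within 500 bp of the end (2.32%), and cover above 50% fell from 5 genes to 1 under that limit (0.798%). No paired analysis was possible because there was 1 library of each kind and the values come from no test.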
